A study of Mus musculus with 6 samples.

Results

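Interferon response genes were followed across 6 droplet single-cell RNA-Seq libraries of mouse lung cells and organoids. The set held 42 genes chosen by symbol, out of 42625 gene symbols present in any of the count tables. Their rule names symbols and sets no threshold on a measured value, but the genes were chosen with earlier results of these data known. Counts of these genes set beside those of all genes therefore describe the set and are not an independent test of it. All 42 had a row in the tables of the single-dose experiment, and 41 had one in the other tables, where Mx1 had no row. For each gene the unique molecular identifiers (UMIs, which count captured transcripts) were summed over barcodes and given as CPM, the count scaled to a total of 1000000 UMIs, by library and by cell group, together with the share of barcodes that carried most of the UMIs.

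Interferons are cytokines of antiviral defence, of which type I interferons are released on sensing of nucleic acid and interferon gamma mainly by T and NK cells. Type I interferons (Ifna, Ifnb) signal through the receptor subunits Ifnar1 and Ifnar2 and a complex with Stat2 and Irf9 that binds the interferon-stimulated response element (ISRE), whereas interferon gamma (Ifng) signals through Ifngr1 and Ifngr2 to the gamma-activated site (GAS). In lung the genes so induced include antiviral effectors, cell-autonomous immunity GTPases, parts of antigen processing and chemokines that draw T cells.

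Cells came from Pdgfra-GFP mice, a knock-in reporter in which nuclear GFP marks Pdgfra-expressing cells, so every lung library was a GFP+ sort of mainly fibroblasts (FBs). Male mice of 10 to 14 weeks were given PBS (50 µl) or bleomycin by oropharyngeal aspiration, either as a single dose or as 3 weekly doses (1, 1 and 0.5 U/kg), and lungs were taken 14 days after the last dose. The labels disagree on the size of the single bleomycin dose, which is 2 U/kg in the protocol text and 4 U/kg among the treatment tags. In the organoids, tomato+ type 2 alveolar epithelial cells (AEC2s) of SpcCreER × Rosa-td26 mice, which carry a tamoxifen-inducible Cre at the surfactant protein C gene and a tomato reporter, induced with tamoxifen (2 doses of 1 mg/kg) were mixed 10:1 with GFP+ FBs of mice given PBS (normal) or a single dose of bleomycin at 2 U/kg (fibrogenic) and cultured for 2 weeks. This proportion is that of the labels, and the study's methods give another, with FBs in excess. Each library pooled 3 mice per cell source, and each condition had 1 library. Variation between mice could not be estimated, no p-value was computed between conditions, and every interval given here is a 95% interval for counting error only.

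The libraries held 1060 to 10737 barcodes and 7201081 to 238618743 UMIs, and libraries shared at most 30 barcode strings. Depth per barcode differed within the pairs compared. The median was 6780.5 UMIs in single-dose PBS and 10711 in single-dose bleomycin, 10178 in repetitive PBS and 2478 in repetitive bleomycin, and 36841 in normal and 4289.5 in fibrogenic organoids, and 43.7% of the repetitive bleomycin barcodes lay under 2000 UMIs. Cell types were gated by marker genes. A type was considered in a barcode when at least 3 of its markers were detected. The barcode was assigned to a type that held 80% or more of the marker UMIs of the types considered. Markers of types with fewer than 3 detected did not enter this share, so a gate could still hold their UMIs. FB-gated barcodes numbered 920, 869, 5539 and 9338 in the single-dose PBS, single-dose bleomycin, repetitive PBS and repetitive bleomycin libraries, which was 85.6% to 90.2% of each, and 2401 and 5156 in normal and fibrogenic organoids. All 8 FB markers were detected in every FB gate, with summed levels of 7043 to 16454 CPM, and Pdgfra itself was at 295 to 592 CPM in the lung FBs and at 70.1 to 75.1 CPM in the organoid FBs.

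Promoter windows were available for 32 of the 42 genes (RefSeq, GRCm38.p6, from 250 bases before to 50 after each start). They were searched on both strands for the core of the ISRE, which is GAAA, any 2 bases and GAAA again, and for the GAS letters TTCNNNGAA. Overlapping ISRE matches were counted separately. The ISRE letters were present in 18 of the 32 genes (56.25%), against 3.99% of 27025 genes in the table, and the GAS letters in 9 (28.1%), against 9.55%. By role, the ISRE letters were found in 8 of 14 antiviral effectors, 6 of 7 GTPases, 2 of 2 sensors, 1 of 4 transcription factors, 1 of 2 chemokines and 0 of 3 antigen-processing genes. Of the 32, 5 held both motifs and 10 held neither. No window was matched for Zbp1, Dhx58, Oas2, Usp18, Mx1, Parp14, Rtp4, Gbp4, Gbp6 and Iigp1. A match is a description of the letters in the window, not a shown binding site. Stretches of 60 bases are shown for genes on which the results below turn, on the strand of the gene, with the matching letters in capitals. Isg15 (chr4:156200850-156200909, minus strand) held 3 overlapping ISRE matches, Ifit1 (chr19:34640779-34640838, plus strand) and Oas1a (chr5:120907526-120907585, minus strand) held 2 each, and Cxcl10 (chr5:92349068-92349127, minus strand) and Trim30a (chr7:104465195-104465254, minus strand) held 1. GAS letters without ISRE letters were found in 4 genes, Irf1, Ifit2, Ifi35 and Psmb8. Ifit2 (chr19:34550444-34550503, plus strand) and Irf1 (chr11:53769898-53769957, plus strand) are shown as examples of GAS letters. All of these stretches lie before the annotated start.
Isg15: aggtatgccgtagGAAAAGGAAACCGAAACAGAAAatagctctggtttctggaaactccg
Ifit1: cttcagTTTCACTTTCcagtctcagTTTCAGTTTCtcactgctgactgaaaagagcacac
Oas1a: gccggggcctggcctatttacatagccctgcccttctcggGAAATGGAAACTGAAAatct
Cxcl10: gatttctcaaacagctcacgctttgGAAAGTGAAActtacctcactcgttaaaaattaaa
Trim30a: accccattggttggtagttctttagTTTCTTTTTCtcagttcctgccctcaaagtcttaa
Ifit2: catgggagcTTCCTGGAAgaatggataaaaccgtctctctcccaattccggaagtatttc
Irf1: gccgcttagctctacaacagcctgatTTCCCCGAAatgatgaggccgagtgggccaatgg

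The summed level of the interferon response genes in lung FBs was higher after bleomycin in both experiments. In FB-gated barcodes the set summed to 854 CPM in single-dose PBS and 1501 CPM in single-dose bleomycin, and to 1158 CPM in repetitive PBS and 1568 CPM in repetitive bleomycin. In organoid FBs it summed to 749 CPM with normal and 738 CPM with fibrogenic FBs. Ratios between libraries were taken as log2 of (CPM + 1), for genes with at least 20 UMIs over both groups, which understates the change of genes with low levels, and a gene at least 2-fold apart on this scale was counted as past the limit. After the single dose 14 of 42 genes were at least 2-fold higher and 0 lower, where 9.1% of all 12117 genes tested were higher and 3.63% lower, and the median log2 ratio was 0.56 against 0.09 for all genes. After repetitive dosing 12 of 41 genes were at least 2-fold higher and 0 lower, where 6.08% of 17312 genes were higher and 1.65% lower, and the median was 0.48 against 0.10. This second count depended on the setting, with 4 genes when 5 CPM was added in place of 1 (2.49% of all genes), 7 after centring on the median gene (4.99%) and 7 without the 1% of barcodes richest in the set (6.02%). All the genes that had a row passed the minimum of UMIs in both lung experiments.

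The same direction was common to the lung experiments. Of 41 genes tested in both, 33 were higher in both, where this held for 47.9% of 11146 genes, and 11 were at least 2-fold higher in both, where this held for 5.51%. The 11 were the sensor Zbp1, the effectors Ifit1, Isg15, Rsad2, Oasl2, Oas1a, Ifi44 and Trim30a, the GTPases Ifi47 and Iigp1, and the chemokine Cxcl9. Of these, Zbp1, Ifit1, Iigp1 and Cxcl9 stayed at least 2-fold higher in both pairs under every alternative computed. In the repetitive pair the log2 ratios of Isg15 (0.97), Oasl2 (0.92), Oas1a (0.94) and Trim30a (0.96) were under 2-fold after centring on the median gene. Their lowest values under any alternative were 0.86, 0.82, 0.35 and 0.93. Without the 1% of barcodes richest in the set, Isg15 was at 0.86 and Rsad2 at 0.36. The lowest values of Ifi44 and Ifi47 under any alternative were 0.96 and 0.91. In the single-dose pair Oasl2 had a lowest value of 0.95. Irf1, Ifit2, Dhx58 and Ifi35 were lower in both, although with barcodes weighted equally Dhx58 was at 0.01 in the repetitive pair and Ifi35 at 0.01 in the single-dose pair, and Irf9, Gbp6, Psmb9 and Cxcl10 lay in opposite directions. For all genes, the shares lower in both or in opposite directions were not computed. With 1 library per arm, these counts describe the libraries.

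**Figure D1:**
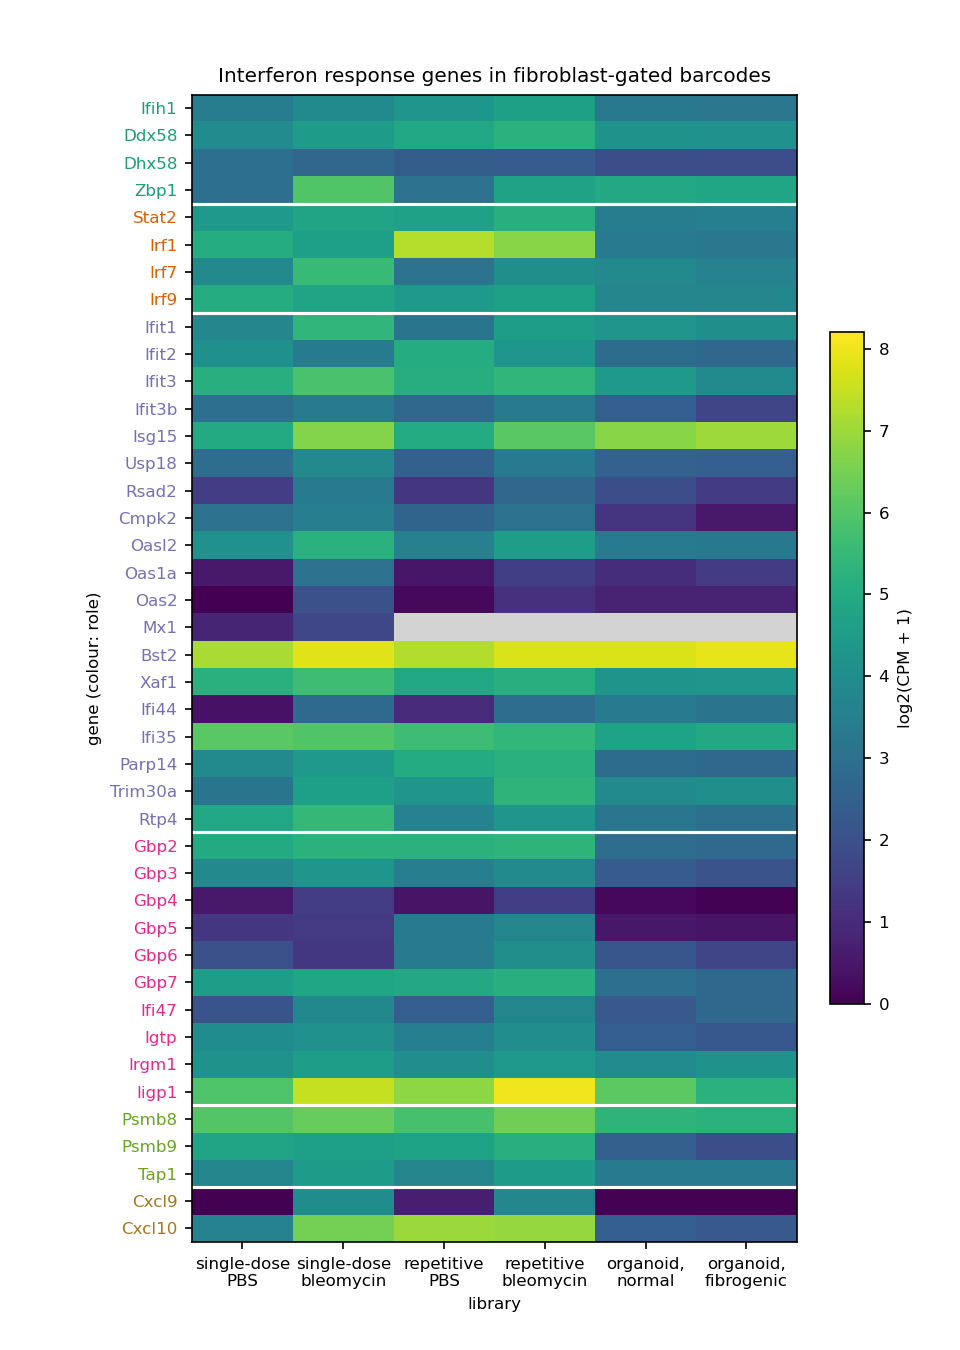
Level of each interferon response gene in FB-gated barcodes of the 6 libraries, as log2(CPM + 1) on the colour scale, with genes in rows coloured by role and libraries in columns. Grey marks the tables in which Mx1 had no row, and the highest level plotted is that of Iigp1 in repetitive bleomycin (262 CPM), against 36.6 CPM in fibrogenic organoids.

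Among the 4 sensors of nucleic acid, Zbp1, which binds left-handed nucleic acid, stood out. It was at 7.0 CPM in single-dose PBS and 62.5 CPM in single-dose bleomycin, an 8.92-fold difference (6.55 to 12.4), and at 7.35 and 25.5 CPM in the repetitive pair, a 3.47-fold difference (3.12 to 3.87). Dhx58, a helicase that modulates RNA sensing, was at 7.0 and 5.57 CPM in the single-dose pair and at 4.31 and 4.15 CPM in the repetitive pair, and both ratios had intervals that included 1. The RNA helicases Ifih1 and Ddx58 had log2 ratios between 0.31 and 0.57 in both pairs.

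The 4 transcription factors differed in direction. Irf7, which amplifies type I interferon expression, was at 13.5 and 44.7 CPM in the single-dose pair, 3.31-fold higher after bleomycin (2.62 to 4.23), and at 7.72 and 15.8 CPM in the repetitive pair, a log2 ratio of 0.95. Irf1, which responds mainly to interferon gamma, was lower after bleomycin in both pairs. Its levels were 32.7 and 24.0 CPM after the single dose, 1.37-fold lower (1.13 to 1.65), and 157 and 105 CPM after repetitive dosing, 1.49-fold lower (1.44 to 1.54). Stat2 had log2 ratios of 0.33 and 0.45, and Irf9, its DNA-binding partner, had -0.28 and 0.23. At 157 and 105 CPM, Irf1 was higher in both repetitive libraries than in the single-dose ones, whose tables list other gene rows, and the experiments were not compared further.

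The antiviral effectors, which include the Ifit RNA-binding proteins, the ubiquitin-like Isg15 and the oligoadenylate synthetases, made up 19 of the 42 genes tested after the single dose and 18 of 41 after repetitive dosing. Of these, 8 of 19 and 7 of 18 were at least 2-fold higher (9.1% and 6.08% of all genes). Isg15 was at 31.3 and 101.6 CPM in the single-dose pair, 3.25-fold higher after bleomycin (2.78 to 3.81), and at 31.7 and 67.8 CPM in the repetitive pair, 2.14-fold higher (2.02 to 2.26). Ifit1, which binds RNA that lacks a host cap, was at 12.9 and 41.2 CPM and at 8.02 and 22.7 CPM, with log2 ratios of 1.61 and 1.39. Its neighbour Ifit2 was lower, at 16.4 and 9.34 CPM in the single-dose pair, 1.76-fold lower (1.32 to 2.35), and at 33.0 and 19.0 CPM in the repetitive pair, 1.74-fold lower (1.61 to 1.87). Ifit3 had log2 ratios of 0.67 and 0.30, and Ifit3b, a near-identical copy whose reads cannot be told apart with certainty, had 0.42 and 0.63. Without the 1% of barcodes richest in the set, Ifit3b was at 1.12 in the single-dose pair and 0.36 in the repetitive pair. Bst2, a membrane tether of virions and the gene of the set with the highest sum over the 6 libraries, was at 141 and 220 CPM and at 153 and 211 CPM, with log2 ratios of 0.64 and 0.45.

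Several effectors were near absent from PBS FBs. Oas1a, which activates RNase L in response to double-stranded RNA, had 3 UMIs in single-dose PBS and 77 in bleomycin (0.489 and 7.27 CPM), 14.9-fold higher (4.90 to 73.7), and 0.404 and 1.89 CPM in the repetitive pair. Oas2 had 0 UMIs in single-dose PBS, where 3 counts would be 0.489 CPM, and 33 in bleomycin. With the 0 read as 3 counts it was 6.37-fold higher, a value that leaves out the counting error of the 33 UMIs. In the repetitive pair Oas2 was at 0.135 and 1.25 CPM, a log2 ratio of 0.99. Ifi44 had 2 and 64 UMIs in the single-dose pair (0.326 and 6.04 CPM), 18.5-fold higher (4.93 to 156), and was at 0.992 and 6.62 CPM in the repetitive pair, 6.68-fold higher (5.07 to 8.93). Rsad2 (viperin) was at 1.79 and 9.16 CPM, a log2 ratio of 1.86, and at 1.48 and 5.54 CPM, a log2 ratio of 1.40. Mx1, measured in the single-dose pair alone, had 5 and 25 UMIs.

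Of the remaining effectors, Trim30a had log2 ratios of 1.45 and 1.07 and Oasl2 of 1.10 and 1.02. Usp18, the protease that removes Isg15 from proteins, had log2 ratios of 0.92 and 0.85, Rtp4 of 0.55 and 0.65, Cmpk2 of 0.44 and 0.46, Xaf1 of 0.44 and 0.23, and Parp14 of 0.54 and 0.17. Ifi35 was at 68.1 and 62.3 CPM in the single-dose pair and at 49.9 and 42.4 CPM in the repetitive pair, and its single-dose interval included 1.

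The GTPases are of 2 families, the guanylate-binding proteins (Gbp) and the immunity-related GTPases, both of which act on membranes that enclose pathogens. Iigp1 was at 60.6 and 179 CPM in the single-dose pair, 2.96-fold higher after bleomycin (2.64 to 3.31), and at 111 and 262 CPM in the repetitive pair, 2.36-fold higher (2.29 to 2.42). Ifi47 was at 3.42 and 13.2 CPM, 3.86-fold higher (2.43 to 6.44), and at 4.41 and 12.6 CPM, 2.87-fold higher (2.49 to 3.32). These were the only GTPases past the limit in both pairs. Gbp4 was past it after repetitive dosing, at 0.353 and 1.85 CPM with a log2 ratio of 1.07, but was under it after centring (0.97), without the 1% of barcodes richest in the set (0.89) and in barcodes that passed the FB gate alone (0.90), with a lowest value of 0.35 under any alternative. It had 3 and 19 UMIs in the single-dose pair. Gbp6 had the lowest single-dose ratio, with 19 and 16 UMIs, 2.05-fold lower in CPM (0.998 to 4.26), but was at 9.72 and 15.6 CPM in the repetitive pair. Gbp2 was at 31.3 and 37.2 CPM and at 37.4 and 39.6 CPM. Gbp3, Gbp5, Gbp7, Igtp and Irgm1 had log2 ratios of 0.08 to 0.48 in the lung pairs. Gbp genes are close relatives, and how their shared reads were counted is not given in the sources used here.

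The antigen-processing genes are the immunoproteasome subunits Psmb8 and Psmb9 and the peptide transporter Tap1, which lie side by side on chromosome 17. None was past the limit in either pair. Tap1 was at 12.2 and 21.8 CPM in both pairs, with log2 ratios of 0.79. Psmb8 was at 63.2 and 78.1 CPM and at 55.3 and 84.6 CPM, with log2 ratios of 0.30 and 0.60. Psmb9 was at 26.4 and 24.0 CPM in the single-dose pair, with an interval that included 1, and at 26.3 and 34.0 CPM in the repetitive pair.

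The chemokines Cxcl9 and Cxcl10, ligands of Cxcr3, a chemokine receptor of T cells, parted between the experiments. Cxcl9 had 0 UMIs in single-dose PBS FBs and 158 in bleomycin (14.9 CPM), at least 30.5-fold higher, and 37 and 793 UMIs in the repetitive pair (0.622 and 12.8 CPM), 20.6-fold higher (14.8 to 29.5), although 1 barcode held 24 of the 37 UMIs of repetitive PBS, so that the size of this fold rests on that barcode. Cxcl10 was at 11.4 and 89.1 CPM in the single-dose pair, 7.82-fold higher after bleomycin (6.13 to 10.1), whereas in the repetitive pair it was at 125 and 118 CPM, 1.06-fold lower (1.03 to 1.09). The PBS libraries thus differed for Cxcl10 (11.4 and 125 CPM), while the bleomycin libraries were at 89.1 and 118 CPM.

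**Figure D2:**
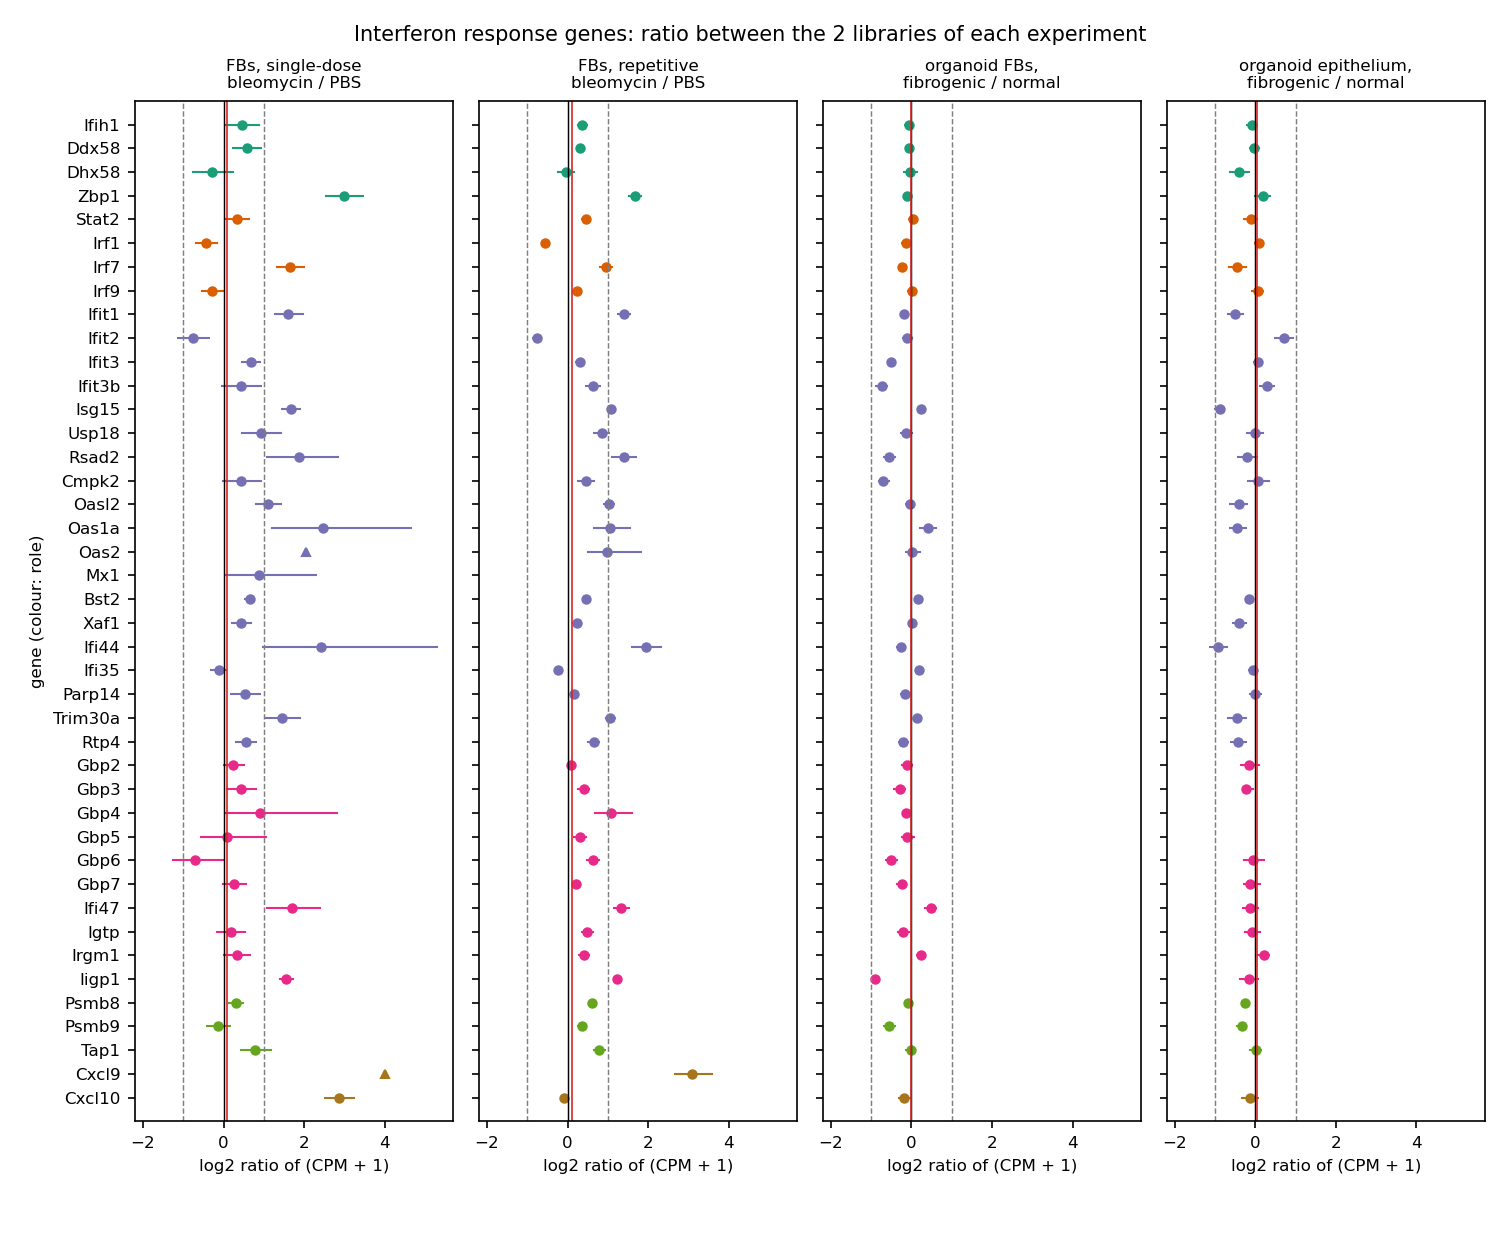
Log2 ratio of (CPM + 1) for each gene between the 2 libraries of each experiment, with points coloured by role, lines for the 95% counting intervals, triangles where the PBS library had 0 UMIs (drawn with no interval), dashed lines at 2-fold and a red line at the median of all genes tested. The lung panels lie mostly right of the red line, with 14 and 12 genes past 2-fold, and the organoid panels lie between the dashed lines.

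Other cell types could add to these sums, and their markers differed between the FB gates. Summed myeloid markers (8 of 8 detected) were at 56.3 and 117 CPM in the single-dose pair and at 15.1 and 88.7 CPM in the repetitive pair. Summed plasma cell markers were at 3.09 and 4.72 CPM (5 and 6 of 6 detected) and at 2.09 and 72.8 CPM (6 of 6), T cell markers at 12.7 and 10.3 CPM and at 2.67 and 10.8 CPM (8 of 8), endothelial markers at 18.2 and 20.7 CPM and at 11.1 and 20.2 CPM (8 of 8), and mural cell markers at 70.1 and 220 CPM and at 47.1 and 96.8 CPM (6 and 7 of 7, then 7 of 7). Summed mesothelial markers were at 163 and 89.3 CPM (3 and 6 of 7 detected) and at 129 and 69.7 CPM (6 of 7), but most of these UMIs were of Upk1b, which was found in 53.8% of single-dose PBS FBs and was at 162 and 68.2 CPM and at 121 and 59.9 CPM. The mesothelial factor Wt1 was higher after bleomycin, at 0.814 and 16.2 CPM and at 6.61 and 8.19 CPM. In the mural sums most UMIs were of Des, at 66.6 and 178 CPM and at 42.4 and 69.5 CPM. The mural marker Notch3 was at 1.79 and 10.7 CPM and at 1.85 and 11.4 CPM. Lyz2 made up much of the myeloid sums, at 31.9 and 62.2 CPM and at 6.79 and 64.6 CPM. The part of these other cell types in the results was not tested. When barcodes had to pass the FB gate alone, an alternative chosen after seeing the data, 15 genes were at least 2-fold higher after the single dose (8.41% of all genes) and 12 after repetitive dosing (5.81%).

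FBs were also divided by markers of lipofibroblasts (LipoFBs), which hold lipid droplets, and of matrix fibroblasts (MatrixFBs). In LipoFBs the median log2 ratio of the set was 0.63 after the single dose, with 14 of 38 genes at least 2-fold higher (7.26% of all genes), and 0.46 after repetitive dosing, with 12 of 41 (5.75%). In MatrixFBs it was 0.48, with 10 of 35 higher (8.21%) and 1 lower (3.69%), and 0.32, with 5 of 41 higher (4.19%). FBs that matched no subtype had 9 of 34 higher (14.1%) and 2 lower (5.8%) after repetitive dosing. These were 75 PBS and 1707 bleomycin barcodes, with a median of 1622 and 963 UMIs, and 3 counts in these PBS barcodes were 8.68 CPM. The difference between the FB groups was not tested. In the PBS libraries the summed level was lower in LipoFBs (827 and 1133 CPM, single-dose and repetitive PBS) than in MatrixFBs (1025 and 1329 CPM), and in the bleomycin libraries the levels were 1456 and 1565 CPM in LipoFBs and 1655 and 1551 CPM in MatrixFBs. Myofibroblasts (MyoFBs), gated in the bleomycin libraries, summed to 1265 CPM in each of them.

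The pathway around the set was read from 80 further genes. Interferon transcripts were almost absent from FBs. Ifnb1 had 0 UMIs in all 6 FB gates, and no ligand had a UMI in single-dose FBs. Repetitive bleomycin FBs held 1 UMI each of Ifng, Ifna2 and Ifna5 and 2 of Ifnk. Whether these few UMIs reflect expression of a ligand in FBs was not examined. Ifng UMIs lay mostly in T cell-gated barcodes, with 12 UMIs in 100 barcodes of repetitive PBS, 11 in 62 of repetitive bleomycin and 2 in 13 of single-dose bleomycin. Of the receptor subunits, Ifngr1 was lower after bleomycin in both pairs, at 395 and 194 CPM, 2.04-fold lower (1.92 to 2.17), and at 365 and 236 CPM, 1.54-fold lower (1.51 to 1.58). Its partner Ifngr2 was higher, at 61.9 and 79.0 CPM and at 40 and 58.7 CPM. The type I subunits showed the same split, with Ifnar2 at 219 and 160 CPM and at 299 and 250 CPM, and Ifnar1 at 27.2 and 36.2 CPM and at 30.2 and 43.4 CPM. Il10rb was at 57.3 and 47.2 CPM and at 43.6 and 45.4 CPM, and its partner in the lambda receptor, Ifnlr1, was under 1 CPM in all lung FBs.

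Of the signalling genes, Tmem173 (STING, the adaptor of cytosolic DNA sensing) had the highest ratio in both pairs. It was at 9.61 and 39.5 CPM, 4.11-fold higher after the single dose (3.12 to 5.49), and at 7.84 and 22.2 CPM, 2.83-fold higher after repetitive dosing (2.55 to 3.15). Socs3, a feedback inhibitor, had the lowest single-dose log2 ratio of -0.70, and the kinase Jak1 the lowest repetitive one of -0.58. Of the other interferon-induced genes outside the set, 31 of 37 had a higher level after the single dose, as had 56.8% of all genes, and 38 of 44 after repetitive dosing, as had 63.1%. After the single dose 8 of 37 tested were at least 2-fold higher (9.1% of all genes) and 0 lower (3.63%), from Slfn5 (log2 ratio 2.87) to Ifi27 (-0.45), and after repetitive dosing 12 of 44 were higher (6.08%) and 0 lower (1.65%), from the chemokine Ccl5 (2.66) to Ifit1bl2 (-0.41).

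In organoids no gene of the set passed the limit in the whole FB or epithelial gate. Of 40 genes tested in organoid FBs, 0 were at least 2-fold higher and 0 lower with fibrogenic FBs, where 0.209% of 18165 genes were higher and 0.721% lower. The median log2 ratio was -0.11 against -0.02 for all genes, with 11 genes higher and 29 lower, where 45.7% and 54.3% of all genes were. Cxcl9 had 3 and 4 UMIs and was not tested. Iigp1 had the lowest log2 ratio of (CPM + 1), -0.89, at 68.7 CPM with normal and 36.6 CPM with fibrogenic FBs, 1.88-fold lower (1.82 to 1.94). Ifit3b was at 4.5 and 2.29 CPM, 1.97-fold lower (1.72 to 2.25), and Cmpk2 at 1.37 and 0.465 CPM, 2.95-fold lower (2.24 to 3.93), but these values rest on few barcodes. Without the 1% of barcodes richest in the set the log2 ratios were -0.18 for Cmpk2, -0.39 for Ifit3b and -0.93 for Iigp1, and with barcodes weighted equally they were -0.14, -0.35 and -1.18. The immunoproteasome subunit Psmb9 was at 4.75 and 2.94 CPM, 1.61-fold lower (1.43 to 1.83). At the other end Ifi47 was at 3.87 and 5.81 CPM, 1.5-fold higher (1.34 to 1.68), Oas1a had a log2 ratio of 0.40, and Isg15 was at 106 and 126 CPM, 1.18-fold higher (1.16 to 1.21). Bst2 was at 214 and 239 CPM, Psmb8 at 39.1 and 36.8 CPM, Zbp1 at 29.6 and 27.4 CPM, Irf1 at 9.71 and 8.70 CPM and Cxcl10 at 4.48 and 3.87 CPM. Of the transcription factors, Stat2 was at 10.2 and 10.6 CPM and Irf7 at 13.5 and 11.4 CPM. Zbp1 and Isg15, past 2-fold in both lung pairs (for Isg15 not under every alternative in the repetitive pair), thus stayed under that limit in cultured FBs.

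Organoid epithelium gave a similar picture. Epithelial-gated barcodes (1994 normal and 2038 fibrogenic) summed to 503 and 447 CPM, and 0 of 37 genes were at least 2-fold higher or lower, where 0.339% of 16542 genes were higher and 0.121% lower. The median log2 ratio was -0.13 against 0.04 for all genes, with 27 of 37 genes lower with fibrogenic FBs, as were 40.1% of all genes. FB markers in this gate summed to 82.5 and 164 CPM (8 of 8 detected) and mesothelial markers to 36.2 and 79.1 CPM (5 and 3 of 7). Myeloid markers summed to 5425 and 5867 CPM (7 of 8). The median myeloid marker was under 1 CPM in both libraries, so a minority of the 8 held nearly all of these UMIs. The myeloid sum therefore does not stand for the whole marker list. The part of these FB, mesothelial and myeloid markers in the result was not tested. Ifi44 was at 2.76 and 0.987 CPM, 2.80-fold lower (2.10 to 3.79), although its log2 ratio with the added 1 CPM was -0.92. Isg15 was at 26.5 and 13.9 CPM, 1.90-fold lower (1.75 to 2.06), and so lay in the opposite direction to Isg15 in the FBs of the same cultures. Ifit2 was highest, at 2.22 and 4.26 CPM, 1.92-fold higher (1.58 to 2.33). Psmb8 was at 109 and 90.9 CPM, Psmb9 at 23.1 and 18.1 CPM, Bst2 at 117 and 105 CPM and Irf1 at 21.9 and 23.4 CPM. Iigp1, at 68.7 and 36.6 CPM in the organoid FBs, was at 2.98 and 2.55 CPM in the epithelium, and Cxcl9 had 0 UMIs. Irf7 was at 4.06 and 2.72 CPM, Dhx58 at 2.21 and 1.43 CPM, Zbp1 at 4.65 and 5.40 CPM, Irgm1 at 11.7 and 13.6 CPM and Gbp3 at 20 and 4 UMIs. Conversely Ifnlr1, the lambda receptor subunit, was at 6.43 and 7.21 CPM in the epithelium and at 1.11 and 0.852 CPM in the organoid FBs.

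FBs of the organoids were divided by subtype as well. Barcodes with MyoFB markers had 0 of 39 genes at least 2-fold higher (0.17% of all genes) and 1 lower (0.468%) with fibrogenic FBs, and proliferating ones had 1 of 39 higher (0.669%) and 2 lower (1.53%). MatrixFBs, with 69 and 28 barcodes, had 0 of 24 higher (2.27%) and 3 lower (5.6%), and barcodes of no subtype had 2 of 36 higher (2.94%) and 2 lower (1.92%).

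For the rest of the pathway in organoids, the median log2 ratio was -0.02 in the FBs and 0.05 in the epithelium, against -0.02 and 0.04 for all genes. Some single genes passed the limit. In the FBs 0 of 45 other interferon-induced genes were at least 2-fold higher (0.209% of all genes) and 1 was lower (0.721%), from Ccl5 (log2 ratio 0.75) to the membrane protein Ifitm1 (-2.10). In the epithelium 1 of 43 was higher (0.339% of all genes), Ly6a at 1.00, and 2 were lower (0.121%), the lowest Ccl5 at -1.05. Signalling genes ranged from Mavs (0.17) to Irf8 (-1.05) in the FBs and from Jak2 (0.54) to Cgas (-0.20) in the epithelium. Of these, 1 of 14 was at least 2-fold lower in the FBs (0.721%) and 0 of 13 in the epithelium (0.121%). Receptor subunits were higher with fibrogenic FBs for 4 of 6 in the FBs (45.7% of all genes) and 6 of 6 in the epithelium (59.9%). In the organoid FB gates summed epithelial markers were at 94.1 and 98.8 CPM (8 of 8 detected), with Krt8 in 20.7% and 21.1% of barcodes. Summed myeloid markers were at 213 and 209 CPM, of which Lyz2 alone was at 208 and 202 CPM. The epithelial gates of the same libraries held myeloid markers at 5425 and 5867 CPM. The part of these markers in the organoid FB results was not tested.

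Other cells caught in the GFP+ sort placed the FB levels in context. Endothelial-gated barcodes had the highest sums, 4070 CPM in single-dose PBS (19 barcodes) and 3790 CPM in repetitive PBS (78 barcodes). In repetitive PBS the endothelial barcodes had Bst2 at 573 CPM, Iigp1 at 337 CPM, Gbp2 at 177 CPM and Gbp4 at 138 CPM. In repetitive bleomycin 35 endothelial barcodes summed to 2294 CPM. The median log2 ratio there was -0.95, and 0 of 27 genes were at least 2-fold higher and 12 lower, where 4.37% of all genes were higher and 12.6% lower. Markers of other cells differed in the same direction, with FB markers at 659 and 269 CPM (8 and 7 of 8 detected), T cell markers at 77.4 and 5.18 CPM (8 and 1 of 8), B cell markers at 84.3 and 0 CPM (5 and 0 of 6) and myeloid markers at 77.4 and 10.4 CPM (7 and 2 of 8), and their part in the result was not tested. The endothelial and FB medians of the repetitive pair thus had opposite signs, a difference that rests on few barcodes and was not tested. T cells summed to 1418 to 2084 CPM and had Psmb8 at 574 to 642 CPM, and in the repetitive pair 3 of 16 genes were at least 2-fold higher (6.46%) and 0 lower (12.3%). Lung myeloid cells summed to 1303 to 1846 CPM, with 4 of 33 higher (7.72%) and 4 lower (6.18%) in the repetitive pair. Lung epithelial barcodes of the repetitive pair summed to 263 and 361 CPM, the lowest of the lung groups with at least 10 barcodes, with 1 of 5 higher (5.99%) and 0 lower (10.3%).

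**Figure D3:**
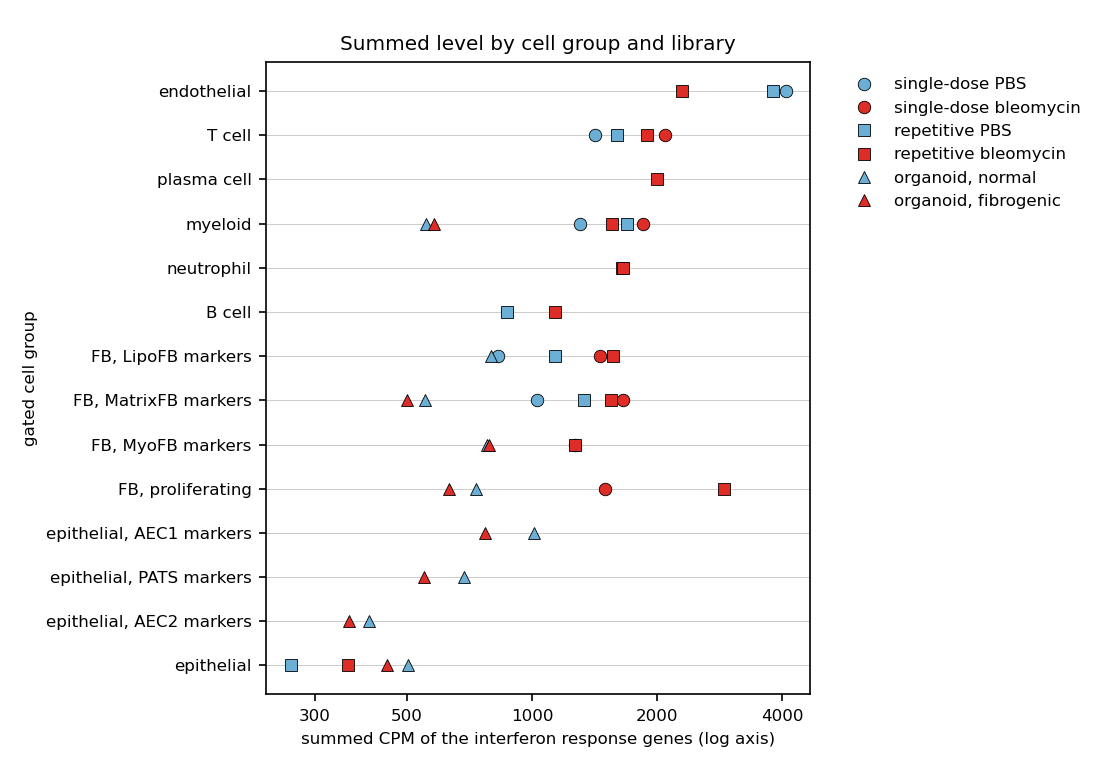
Summed CPM of the interferon response genes (log axis) in each gated cell group with at least 10 barcodes, with circles for single-dose, squares for repetitive and triangles for organoid libraries, blue for PBS or normal and red for bleomycin or fibrogenic. Endothelial barcodes lie at 2294 to 4070 CPM, lung FB groups reach up to 2900 CPM and organoid AEC2s at 362 to 404 CPM.

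Within the organoid epithelium the level differed between marker groups, which was not tested. Barcodes with AEC1 markers, the flat gas-exchange cells, summed to 1008 and 771 CPM in normal and fibrogenic organoids, barcodes with markers of the pre-alveolar type 1 transitional state (PATS) to 685 and 550 CPM, and barcodes with AEC2 markers to 404 and 362 CPM. Epithelial barcodes of no subtype lay between the AEC1-marked and PATS-marked ones, at 847 and 591 CPM. No gene of the set was at least 2-fold higher in any of these 3 groups with fibrogenic FBs, where 1.17%, 0.758% and 0.335% of all genes were higher. There were 3 of 27 at least 2-fold lower in AEC1-marked barcodes (0.398% of all genes), 4 of 32 in PATS-marked ones (0.402%) and 0 of 35 in AEC2-marked ones (0.0644%). Epithelial barcodes of no subtype (120 and 159, with a median of 39924.5 and 2095 UMIs) had 0 of 30 higher (1.84%) and 8 lower (0.852%).

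The UMIs of the set were unevenly spread over FBs. Barcodes were ranked by their UMIs of the set, and the smallest share that held 50% of these UMIs was taken. It was 20.3% of single-dose PBS FBs (187 of 920), 14.8% of single-dose bleomycin FBs (129 of 869), 18.0% of repetitive PBS FBs (997 of 5539) and 8.42% of repetitive bleomycin FBs (786 of 9338). The same share for all UMIs was 35.3%, 29.1%, 32.9% and 15.2%, also lowest in repetitive bleomycin. With only barcodes of at least 2000 UMIs kept, the share of that library was 12.4%. After each barcode was thinned to 2000 UMIs, with 36 to 3946 shallower barcodes left out of each gate, the shares were 18.6%, 15.5%, 17.7% and 18.2%. In organoid FBs they were 9.58% and 6.28% unthinned and 11.9% and 14.5% thinned, for normal and fibrogenic, and the share for all UMIs was 25.5% and 13.5%. Leaving out Psmb8, Psmb9, Tap1 and Bst2, which many resting cells use, lowered the unthinned share in all 6 gates.

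Individual genes differed widely in this respect. A gene with few UMIs can lie in few barcodes at most, as with the 97 UMIs of Rsad2 in single-dose bleomycin FBs. The shares of single genes thus also depend on their levels, which were not matched. Bst2, a broadly used gene, had 50% of its UMIs in 14.3% of single-dose bleomycin FBs and in 7.80% of repetitive bleomycin FBs. Iigp1 had 50% in 98 of 869 and in 393 of 9338 FBs, and Isg15 in 39 of 869 and in 135 of 9338. Cxcl10 had 50% in 9 of 869 and in 44 of 9338, and in 96 of 5539 repetitive PBS FBs. Rsad2 had 50% in 3 of 869 and in 5 of 9338, and Cxcl9 in 2 of 869 and in 5 of 9338. These rare barcodes weigh on the sums. Without the 1% of barcodes richest in the set in each library, the log2 ratio of Rsad2 was 2.00 in the single-dose pair but 0.36 in the repetitive pair, that of Ifit3 was 0.69 and -0.06, and that of Cxcl9 was 3.39 and 2.30. Zbp1 (3.03 and 1.57) and Iigp1 (1.64 and 1.22) changed little. In normal organoids 1 FB barcode held 453 of the 535 Cxcl10 UMIs.

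**Figure D4:**
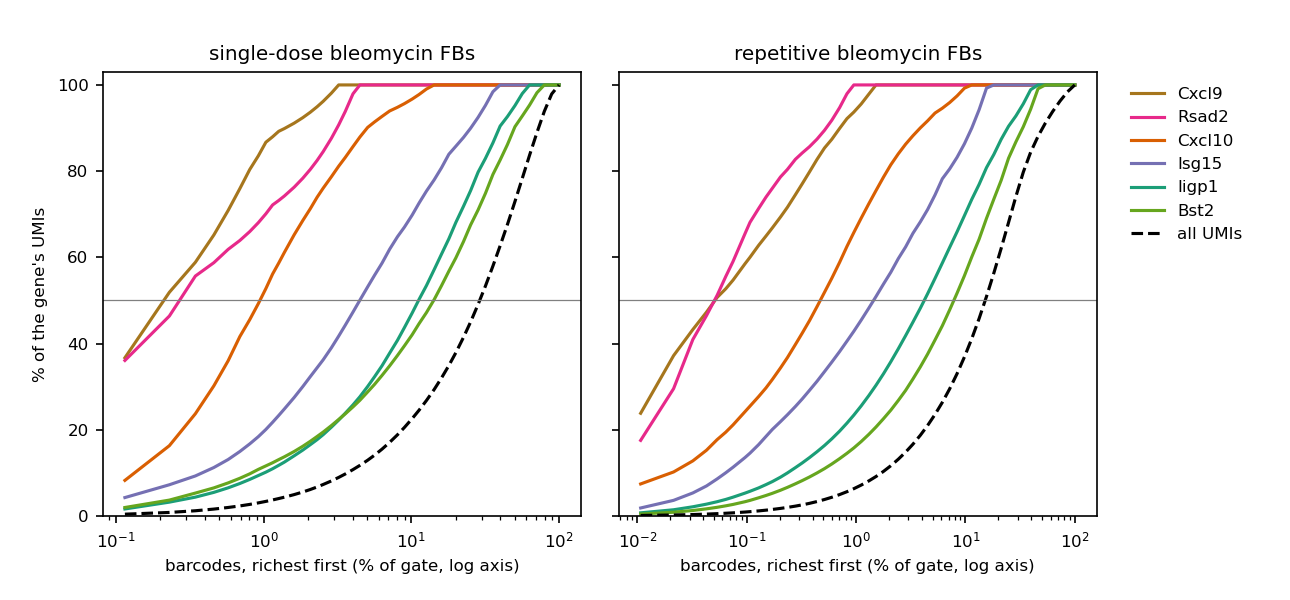
Cumulative share of a gene's UMIs (y axis, %) against the share of FB-gated barcodes ranked from the richest (x axis, %, log scale) in the bleomycin libraries, with the dashed line for all UMIs and the grey line at 50%. The curves of Cxcl9 and Rsad2 lie farthest left, with 50% in 2 and 3 of 869 single-dose barcodes, and Bst2 lies nearest to the dashed line.

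The barcodes rich in Cxcl9 were looked at more closely, with a limit of 5 UMIs chosen after its values were seen. In single-dose bleomycin 9 FB-gated barcodes held 137 of the 158 Cxcl9 UMIs (86.7%). Their summed myeloid markers were at 76.0 CPM, against 118 CPM in the other FBs, and the other genes of the set summed to 3312 CPM against 1373 CPM. In repetitive bleomycin 32 barcodes held 621 of 793 (78.3%), with myeloid markers at 773 CPM against 84.8 CPM and the other genes of the set at 7124 CPM against 1404 CPM. Other markers differed as well. In the single-dose barcodes Spp1 (osteopontin) was at 39759 CPM against 3492 CPM in the other FBs, MyoFB markers, a list that includes Spp1, at 42159 against 4798 CPM, LipoFB markers at 1314 against 3871 CPM and FB markers at 10688 against 15715 CPM. In the repetitive ones Spp1 was at 698 against 1273 CPM, MyoFB markers at 1058 against 2188 CPM, LipoFB markers at 2577 against 5303 CPM and FB markers at 16179 against 16456 CPM. Of the 5550 MyoFB marker UMIs of the 9 single-dose barcodes, 5234 were of Spp1. The 3 of them richest in Cxcl9 held 106, 5 and 29 of these Spp1 UMIs, and the others were not looked at singly. The part of these markers in the result was not tested. The richest barcode of each library, with 58 and 189 Cxcl9 UMIs, had 96 and 389 UMIs of FB markers and 1 UMI of myeloid markers. These richest barcodes held 6 and 0 Cxcl10 UMIs and 1 and 0 Ifit1 UMIs.

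To see how the genes went together in single cells, FBs with UMIs of at least 3 of the 4 genes Ifit1, Ifit3, Isg15 and Rsad2 were chosen, and the genes not used in the choice were read in them. There were 11 of 920 in single-dose PBS, 66 of 869 in single-dose bleomycin, 67 of 5539 in repetitive PBS and 184 of 9338 in repetitive bleomycin. At 2000 UMIs per barcode these were 2 of 873, 14 of 833, 12 of 5359 and 30 of 5392. The chosen barcodes were deeper, with a median of 14974.5 against 10984 UMIs in single-dose bleomycin and 15382.5 against 2536.5 UMIs in repetitive bleomycin. Of the other genes of the set with enough UMIs, 29 of 35 were at least 2-fold higher in the chosen barcodes of single-dose bleomycin, where 1.95% of all genes were, and 35 of 37 in repetitive bleomycin, where 1.36% were. In the PBS libraries these were 23 of 30 (11.6%) and 34 of 36 (4.09%), and in normal and fibrogenic organoid FBs 31 of 35 (0.864%) and 27 of 35 (0.525%). In organoid epithelium, chosen in the same way, they were 27 of 33 (5.66%) and 20 of 31 (6.32%). At least 2-fold lower were 2 of 30 in single-dose PBS, 1 of 31 in fibrogenic organoid epithelium and 0 elsewhere. This share was not computed for all genes. Of other interferon-induced genes, beside the same shares of all genes, 19 of 36 were at least 2-fold higher in single-dose and 25 of 44 in repetitive bleomycin. In PBS these were 13 of 29 and 25 of 41. In normal and fibrogenic organoids they were 21 of 42 and 9 of 45 in FBs, and 23 of 41 and 15 of 36 in epithelium.

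In the chosen barcodes of single-dose and repetitive bleomycin, Ifit3b was at 68.8 and 110 CPM against 2.85 and 4.05 CPM in the other FBs, but it is the copy of a gene used in the choice. Irf7 was at 135 and 74.3 CPM against 34.2 and 12.8 CPM, Ifi44 at 27.2 and 53.9 CPM against 3.58 and 4.17 CPM, and Cxcl10 at 325 and 687 CPM against 61.6 and 88.9 CPM. Irf1 and Psmb8 differed less between chosen and other barcodes. Irf1 was at 30.8 CPM against 23.2 CPM, 1.33-fold higher with an interval that included 1 (0.897 to 1.91), and at 133 against 104 CPM, 1.29-fold higher (1.16 to 1.42), and Psmb8 was at 124 against 72.7 CPM and at 166 against 80.4 CPM. Cxcl9 differed between the libraries, at 9.96 against 15.5 CPM in single-dose bleomycin, a fold of 0.643 (0.314 to 1.18), and at 62.4 against 10.3 CPM in repetitive bleomycin, 6.08-fold higher (5.14 to 7.17). The myeloid markers, summed, were at 182 against 109 CPM and at 26.6 against 91.9 CPM in the chosen and other barcodes, and their part in the result was not tested.

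**Figure D5:**
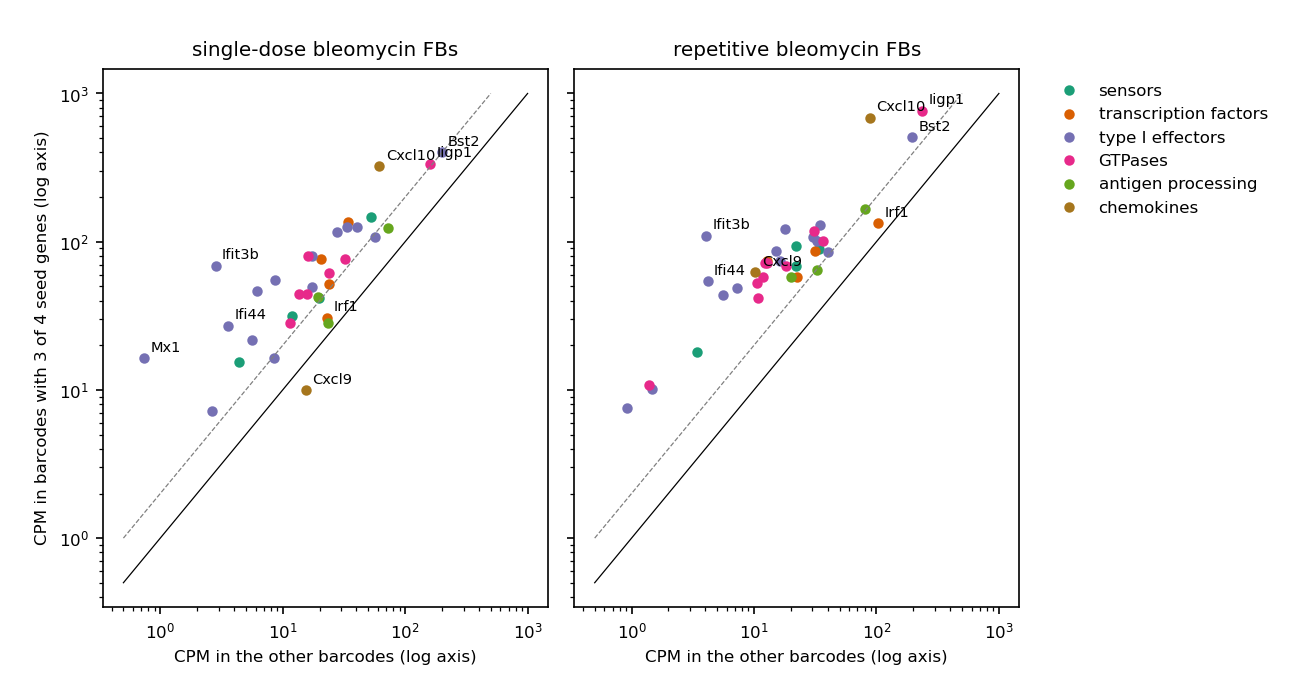
CPM of each gene not used in the choice in FBs with UMIs of at least 3 of the 4 genes Ifit1, Ifit3, Isg15 and Rsad2 (y axis, log) against CPM in the other FBs (x axis, log), with the solid line for equal levels and the dashed line for 2-fold, coloured by role. Most points lie above the dashed line, with Irf1 between the lines in both panels and Cxcl9 under the solid line in single-dose bleomycin alone.

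The number of genes of the set detected per barcode was also counted. At 2000 UMIs, 10 or more were detected in 3 of 873 single-dose PBS FBs (0.344%), 17 of 833 single-dose bleomycin FBs (2.04%), 23 of 5359 repetitive PBS FBs (0.429%) and 54 of 5392 repetitive bleomycin FBs (1.00%). In organoid FBs these were 2 of 2268 and 4 of 3544. Barcodes with no UMI of the set made up 25.9% and 14.8% of the single-dose FBs and 19.9% and 12.5% of the repetitive FBs, PBS and bleomycin in turn. No gated group could be taken to lack these genes, and free RNA was therefore not set against these shares.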

How the data were processed

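Single-cell 3' libraries of 6 conditions were used, 1 library each, grouped by the labels. The authors aligned and counted reads with Cell Ranger 3.0.1 and deposited the counts as whole UMIs for each gene in each barcode, not normalized. The submitters' processing notes name mm10 and Seurat 3, and the methods name Gencode mouse release 17 without separating libraries, although the tables list 30828 to 30830 gene rows for the single-dose libraries and 32285 for the others. Every deposited barcode held at least 500 UMIs.

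Counts were read with Python 3.11.15 (numpy 2.4.6, scipy 1.17.1, pandas 2.3.3, matplotlib 3.10.9). Barcodes were gated by markers without clustering. FB and epithelial barcodes were divided further by the share of a subtype's own markers that was detected. A subtype needed at least 50% of its markers and a higher share than the other subtypes. FBs with at least 50% of the proliferating markers were called proliferating whatever their other markers. This rule depends on depth, and in repetitive bleomycin the median was 963 UMIs in FBs of no subtype and 7170 in LipoFBs. Barcodes with mixed markers (2.49% to 5.19% of a library) or too few markers (1.32% to 15.6%) were left out of the groups, no doublet caller was run, and no mitochondrial filter was applied. UMIs were summed per group and given as CPM with exact Poisson intervals. Ratios used the gene rows common to both tables of a pair. Folds came with exact conditional (Clopper-Pearson) intervals. Depth limits these intervals, and a count of 0 was read as up to 3 counts. The computation was tested on simulated data.

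The genes, gates and lists were chosen with earlier results of these data known. Genes named with full values were, in each comparison and role, the highest and lowest log2 ratio among genes with at least 20 UMIs, plus the 5 genes with the highest summed CPM, and every ligand and receptor of the pathway. Others were named after their values were seen. For each comparison 11 alternatives were computed, 10 of them planned. Promoter sequences came from RefSeq (GRCm38.p6).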

Additional observations from a re-analysis of the deposited data

Results flagged for a closer look

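Of 41 genes tested in both lung experiments, 4 had log2 ratios of opposite sign in FBs. The share of all genes with opposite signs was not computed, so this count has no background beside it. Cxcl10 was at 2.86 after the single dose and -0.08 after repetitive dosing, a difference of 2.94. Gbp6 was at -0.71 and 0.63, a difference of -1.34, with 19 and 16 UMIs in the single-dose pair. Irf9 was at -0.28 and 0.23, a difference of -0.51. Psmb9 was at -0.13 and 0.36, a difference of -0.49. Within the repetitive pair the median log2 ratio of the set was 0.48 in FBs and -0.95 in endothelial barcodes (27 genes), a difference of 1.43. It was -0.20 in lung epithelial barcodes (5 genes), a difference of 0.69 from FBs, and -0.04 in myeloid barcodes (33 genes), a difference of 0.52. None of these differences was tested, since each condition had 1 library.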

How the results depend on the processing

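No paired analysis was possible because each condition had 1 library and no test was run. In the single-dose FBs the median log2 ratio was 0.42 to 0.64 under the 11 alternatives. The genes at least 2-fold higher were 11 to 17, where 4.26% to 11.4% of all genes were. The fewest were 11 of 35 when genes needed at least 100 UMIs (6.72%) and the most 17 of 42 with 0.1 CPM added (11.4%). In the repetitive FBs the median was 0.35 with 5 CPM added, 0.38 after centring on the median gene and 0.36 without the 1% of barcodes richest in the set, and the genes at least 2-fold higher were then 4, 7 and 7 of 41, where 2.49%, 4.99% and 6.02% of all genes were. In organoid FBs the genes at least 2-fold lower were 1 of 40 with 0.1 CPM added (1.99% of all genes) and 1 of 40 with barcodes weighted equally (1.36%). In organoid epithelium they were 3 of 37 (0.399% of all genes) and 1 of 37 (0.242%) under these. They were 1 of 36 (0.364%) with barcodes that passed 1 gate alone, which was chosen after seeing the data. The share of FBs that held 50% of the UMIs, without Psmb8, Psmb9, Tap1 and Bst2, was 17.1% and 12.5% (single-dose PBS and bleomycin), 14.7% and 7.12% (repetitive) and 7.41% and 5.02% (organoids, normal and fibrogenic). With barcodes of at least 2000 UMIs it was 12.4% in repetitive bleomycin and 8.94% in fibrogenic organoids, and after thinning 18.2% and 14.5%, with 11.9% in normal organoids. No median changed sign. Under every alternative in which a gene kept enough UMIs to be compared (7 to 11 of the 11), the direction held for 40 of 42 genes after the single dose (not Ifi35 and Gbp5), 38 of 41 after repetitive dosing (not Dhx58, Ifit3 and Gbp2), 27 of 40 in organoid FBs and 27 of 37 in organoid epithelium. The cause of these shifts was not tested beyond the construction of each alternative.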

Other observations

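Plasma cell-gated barcodes of repetitive bleomycin (64 barcodes) summed to 1996 CPM of the set, with Iigp1 at 304 CPM, Cxcl10 at 205 CPM and Cxcl9 at 134 CPM (72 UMIs). The same barcodes held FB markers at 4687 CPM, against 16454 CPM in the FB gate. Proliferating FBs of this library (32 barcodes) summed to 2900 CPM, and 1 FB barcode of the library held 544 of its 7313 FB-gated Cxcl10 UMIs. Neutrophil-gated barcodes of the repetitive pair (28 and 16) had Isg15 at 423 and 581 CPM and Bst2 at 31.8 and 22.3 CPM, whereas the FBs of that pair had Isg15 at 31.7 and 67.8 CPM and Bst2 at 153 and 211 CPM. FBs of single-dose bleomycin that matched no subtype (56 barcodes) held 86 of the 158 Cxcl9 UMIs of the FB gate.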
